A study of Mus musculus with 12 samples.

Results

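The somatostatin-related peptide gene Cort and the interneuron gene Adarb2 moved in opposite directions in the frontal cortex of mice that lack Upf3b. They belong to a set of 10 genes that mark cortical interneurons: the neuropeptide genes Cort, Sst, Npy, Cck, Vip, Tac1, Penk and Crh, and the markers Pvalb and Adarb2. The set was chosen by symbol, with earlier results of these data known, from a table of 14909 genes. All 10 were found in it and had enough counts to be tested, as did 14274 genes in all. RNA was sequenced in bulk from 5 UPF3B KO mice (KO 1 to 4 and KO 6) and from 7 wild-type mice (WT 1 to 7), 1 library per mouse, all labelled as strain C57BL/6. Upf3b is X-linked and its product acts in nonsense-mediated decay, a pathway that removes mRNAs with early stop codons. The labels do not state the kind of allele, the substrain, or the age and sex of these mice. The study asked which genes are expressed differently when Upf3b is absent.

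Cortical interneurons release the inhibitory transmitter GABA and fall into families that are told apart by the peptides and proteins they make. Somatostatin (Sst) cells, many of which also make neuropeptide Y (Npy) and some cortistatin (Cort), and parvalbumin (Pvalb) cells come from the medial ganglionic eminence of the embryonic forebrain. Vasoactive intestinal peptide (Vip) cells, which can also hold cholecystokinin (Cck) or corticotropin-releasing hormone (Crh), and the Lamp5 cells come mostly from the caudal eminence, and both express Adarb2, an RNA-binding protein of the adenosine deaminase family that is thought to have no editing activity. Tac1, the precursor of substance P, and Penk, the precursor of the enkephalins, are made by some cortical interneurons and abundantly by projection neurons of the striatum, while Cck is also made by excitatory cells. The samples were bulk tissue, so fewer cells of a type and less RNA per cell cannot be told apart.

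Somatostatin and cortistatin are related peptides, and the ends of their coding sequences are shown because the comparison turns on how well reads of these genes can be told apart. In the GENCODE M21 transcripts (mm10), Sst lies on chromosome 16 and Cort on chromosome 4. Shown are the last 42 bases before the stop codon of Sst and the 42 bases of Cort that align best with them. In Cort 1 more codon, of 3 bases, lies behind these. Capitals mark the 31 of 42 positions where the letters are the same.
Sst: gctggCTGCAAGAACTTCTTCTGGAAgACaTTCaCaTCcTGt
Cort: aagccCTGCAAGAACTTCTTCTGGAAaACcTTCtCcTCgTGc
The longest run that the whole transcripts of 721 and 677 bases share is 21 bases. No other annotated gene overlaps either of them.

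The promoters of both genes are shown because Sst is a textbook target of cAMP signalling. The windows run from 250 bases before to 50 bases after the start in RefSeq (GRCm38.p6). Capitals mark the cAMP response element TGACGTCA or its 5-base core TGACG, searched on both strands, so CGTCA counts as a core and the full element holds a core on each strand. The Cort window is chr4:149126714-149127013 on the minus strand and the Sst window is chr16:23890795-23891094 on the minus strand.
Cort: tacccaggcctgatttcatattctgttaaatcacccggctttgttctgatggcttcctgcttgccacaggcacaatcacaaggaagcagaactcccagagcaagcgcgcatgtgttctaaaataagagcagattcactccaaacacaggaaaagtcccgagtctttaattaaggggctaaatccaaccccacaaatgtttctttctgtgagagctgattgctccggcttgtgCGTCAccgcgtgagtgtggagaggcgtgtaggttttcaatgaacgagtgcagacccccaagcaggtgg
Sst: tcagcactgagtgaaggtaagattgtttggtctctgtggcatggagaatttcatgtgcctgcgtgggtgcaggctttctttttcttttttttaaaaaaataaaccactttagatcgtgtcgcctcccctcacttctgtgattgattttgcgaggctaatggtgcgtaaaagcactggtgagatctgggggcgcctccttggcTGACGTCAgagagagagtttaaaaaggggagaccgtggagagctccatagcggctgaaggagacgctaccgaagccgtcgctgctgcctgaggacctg
The full element begins 48 bases before the start of Sst, and the core begins 18 bases before that of Cort. Of 8 members with a promoter in the RefSeq table, 5 hold a core (Cort, Sst, Cck, Vip and Tac1) and 1 holds the full element. The core is held by 20.8% and the full element by 1.79% of all 32851 RefSeq promoters. A match describes these letters only.

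The labels were first checked with Upf3b, which had 11 to 24 counts in KO libraries and 157 to 219 counts in WT libraries. Its log2 fold change was -3.78 ± 0.13 (SE), and exact permutation of the genotypes (two-sided, 792 arrangements) gave p = 0.00253, the smallest possible. Library totals ran from 4990643 to 6617759 counts in KO and from 4684039 to 5425774 in WT, so depth moved with genotype and only KO 1 lay within the WT range. The cortical excitatory marker Slc17a7 was abundant in both groups (335 ± 47.6 CPM in KO and 398 ± 23.4 CPM in WT, where CPM are counts scaled by library size). KO 2 and WT 4 stood apart from the other mice of their group. The summed level of 13 striatal genes was 1635 CPM in KO 2 and at most 1172 in the other KO mice, and it was 2008 in WT 4 and at most 1592 in the other WT mice. The sum of 6 olfactory bulb genes was 104 CPM in KO 2 and at most 63.1 in other KO mice, and 122 CPM in WT 4 and at most 23.0 in other WT mice. For several of the results, values without these libraries are also given. The scaling uses TMM factors, which adjust library sizes for composition.

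Cort was at 42.1% of its WT level in KO cortex, and its counts were lower although most KO libraries were deeper. The 5 KO libraries held 29, 31, 35, 38 and 36 counts in the order KO 1, 2, 3, 4 and 6, and the WT libraries held 56 at the lowest, 60 at the median and 74 at the highest. No KO library reached the lowest WT count, and KO 1, at a depth within the WT range, had the fewest. Cort was thereby 1 of 7 tested genes, 0.049% of 14274, whose raw counts in every KO library lay below those of every WT library, and Upf3b was another. Its level was 5.54 ± 0.511 CPM in KO (SD, n = 5) and 13.2 ± 1.88 CPM in WT (SD, n = 7). By edgeR's quasi-likelihood test (Benjamini-Hochberg) this was a log2 fold change of -1.25 ± 0.13 (SE, adjusted p = 2.53e-05). It passed in all 12 fits that left out 1 library, with an adjusted p of at most 1.64e-04. The call was lost with the log2 library total as a covariate (log2 fold change -0.99 ± 0.21, adjusted p = 0.0528), and the log2 fold change was -1.33 with offsets for count density, described next.

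**Figure D1:**
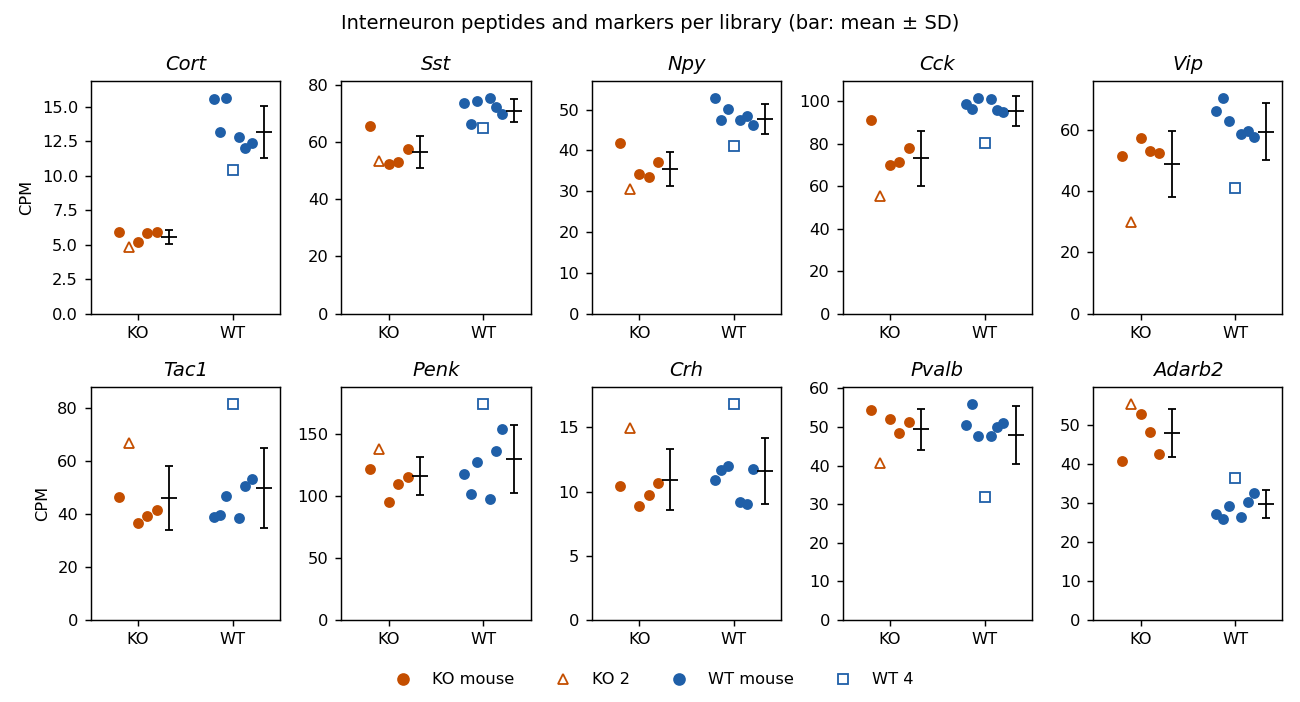
CPM of each of the 10 genes (y axis, linear from 0) in the 5 KO and 7 WT libraries (x axis), 1 point per mouse, with KO 2 and WT 4 drawn as open symbols and the mean ± SD as bars. Cort lies between 4.82 and 5.93 CPM in KO and between 10.5 and 15.6 in WT, and only Cort and Adarb2 have no overlap between the groups.

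Sst itself, the inhibitory peptide that names the lineage, had nearly the same count in every library. The KO libraries held 321, 342, 355, 344 and 350 counts, and the WT libraries held 327 at the lowest, 348 at the median and 352 at the highest. The highest of the 12 counts was 1.11 times the lowest, although totals differed by up to 1.41 times. As a share of the library Sst was therefore lower in the deeper KO libraries, at 56.4 ± 5.58 CPM in KO and 71.0 ± 4.08 CPM in WT, with KO 1 inside the WT range. The log2 fold change was -0.34 ± 0.06 (SE, edgeR adjusted p = 0.00153). Densely counted genes were often called lower in this table, and Sst, at 0.477 counts per exonic base, was denser than 98.3% of tested genes. In the top decile of count density the other 1422 genes had a median log2 fold change of -0.18, and 67.5% of them were called lower. With offsets that remove the trend of fold change on density in each library, Sst was at -0.11 ± 0.04 and did not pass (adjusted p = 0.0750). Adjusted for the library total it was at -0.067 (adjusted p = 0.755). The sources used here do not state whether duplicate reads were removed before counting. A count that does not follow depth limits what the CPM and ratios of Sst, Cck and other dense genes say about abundance, and the part of duplicate handling in it was not tested.

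Npy, an inhibitory peptide made by Sst cells and by Lamp5 cells, was lower with and without these offsets. Its level in KO 1, 2, 3, 4 and 6 was 41.7, 30.7, 34.3, 33.5 and 37.1 CPM, and in WT it was 41.1 at the lowest, 47.5 at the median and 52.8 at the highest. Only KO 1 reached the range of the WT mice, at its low end, where WT 4 lay. The log2 fold change was -0.43 ± 0.08 (SE, edgeR adjusted p = 0.00121), and -0.24 ± 0.05 with density offsets (adjusted p = 0.00797). Like Sst, Npy lies in the top decile of count density, where 67.5% of the other 1422 genes were called lower without offsets. The raw counts of Npy overlapped, at 197 to 232 in KO and 216 to 251 in WT. Adjusted for the library total, Npy was at -0.15 and did not pass (adjusted p = 0.538).

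**Figure D2:**
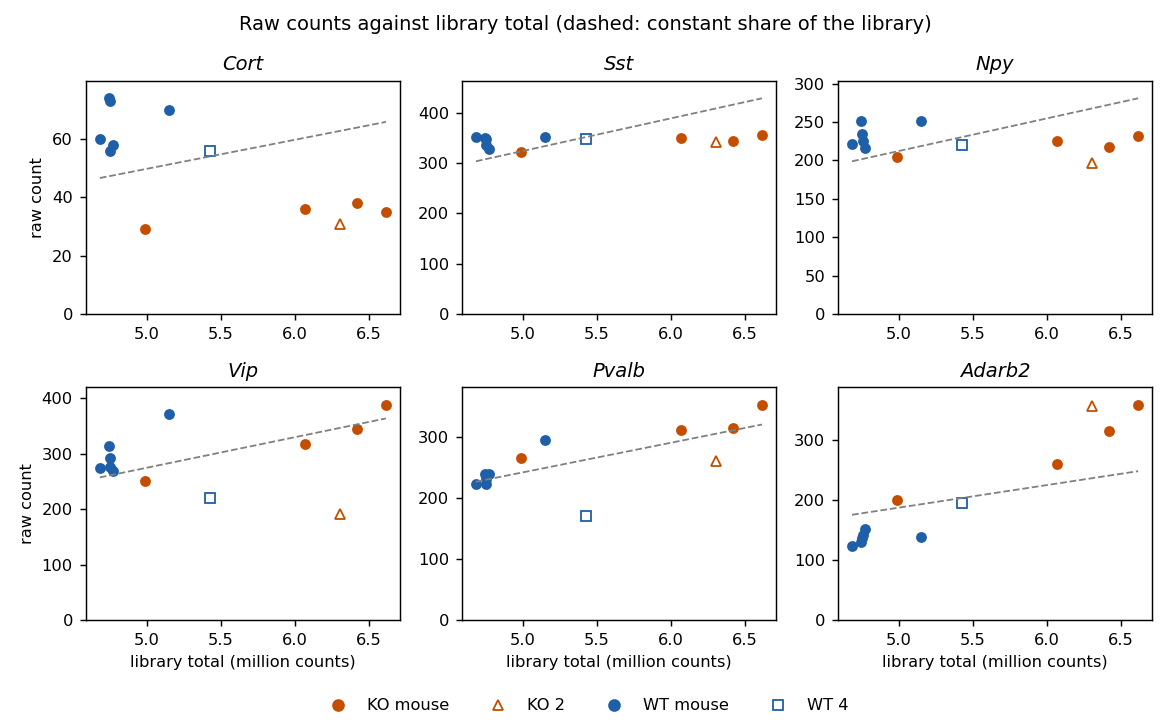
Raw counts of 6 genes (y axis, linear from 0) against the library total (x axis, counts) for the 5 KO and 7 WT libraries; the dashed line is the count at a constant share of the library. Sst stays between 321 and 355 counts at every depth, Cort lies at 38 or fewer in KO and 56 or more in WT, and Adarb2 at 200 or more in KO and 195 or fewer in WT.

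Pvalb, the calcium-binding protein of fast-spiking basket cells, gave no call. It was at 54.4, 40.6, 52.2, 48.5 and 51.2 CPM in KO 1, 2, 3, 4 and 6, and in WT at 31.9 at the lowest, 49.9 at the median and 55.9 at the highest. The groups overlapped throughout, and the lowest mouse of each was KO 2 and WT 4. The log2 fold change was 0.046 ± 0.11 (SE, edgeR adjusted p = 0.780), and it was -0.050 without WT 4. With density offsets it was 0.17 ± 0.10 (adjusted p = 0.237).

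Tac1, a tachykinin precursor, and Penk, an opioid precursor, gave no call and differed widely between mice of one genotype. Tac1 was at 46.2, 66.7, 36.5, 39.2 and 41.3 CPM in KO 1, 2, 3, 4 and 6, and in WT at 38.5 at the lowest, 46.7 at the median and 81.4 at the highest. Penk was at 122, 137, 95.2, 110 and 115 CPM in the same KO mice, and in WT at 97.1 at the lowest, 128 at the median and 174 at the highest. KO 2 and WT 4, the libraries with the highest striatal sum, were the highest of their group for both genes. Neither passed, with log2 fold changes of -0.12 ± 0.19 (adjusted p = 0.667) and -0.17 ± 0.13 (adjusted p = 0.350). They were -0.14 ± 0.09 and -0.16 ± 0.10 without KO 2 and WT 4, and again neither passed (edgeR adjusted p = 0.266 and 0.225). Penk shares 233 exonic bases with an antisense noncoding gene, A830012C17Rik, and without a stated strand setting reads from that gene cannot be told apart from its own.

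Vip, a peptide of interneurons that inhibit other interneurons, gave no call with all libraries, and its call depended on KO 2 and WT 4. It was at 51.3, 29.9, 57.4, 52.9 and 52.4 CPM in KO 1, 2, 3, 4 and 6, and in WT at 41.1 at the lowest, 59.4 at the median and 70.2 at the highest. KO 2 and WT 4 were the lowest mouse of each group, and 6 of 7 WT mice lay above every KO mouse. With all libraries the log2 fold change was -0.28 ± 0.14 (SE, edgeR adjusted p = 0.147). Without KO 2 and WT 4 it was -0.23 ± 0.06 and passed (adjusted p = 0.010), and it also passed without WT 4 alone (-0.37, adjusted p = 0.0284). Without KO 2 alone it was -0.15 and did not pass (adjusted p = 0.324). With density offsets and without both libraries it was -0.15 ± 0.06 and did not pass (adjusted p = 0.109).

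Cck, the precursor of cholecystokinin, had 91.2, 55.4, 70.1, 71.7 and 78.1 CPM in KO 1, 2, 3, 4 and 6, and in WT 80.2 at the lowest, 96.4 at the median and 102 at the highest. All but KO 1 lay below the WT mice, and WT 4 lay below the other WT mice. The log2 fold change was -0.39 ± 0.09 (SE, edgeR adjusted p = 0.00630), and -0.36 ± 0.06 without KO 2 and WT 4 (adjusted p = 7.06e-04). Cck is the most densely counted of the 10 genes, at 0.533 counts per exonic base, and with density offsets it was at -0.15 ± 0.06 and did not pass (adjusted p = 0.120). Of 11 excitatory neuron genes 2 were called lower and 9 were not called. Their log2 fold changes ran from -0.30 to 0.52, with a median of -0.044. The 2 called were Camk2a and Slc17a7, at -0.30 and -0.25 without offsets (edgeR adjusted p = 0.00619 and 0.0196). With offsets they were near 0 (-0.018 and 0.025). Crh, the stress peptide, was scarce, at 10.4, 14.9, 8.87, 9.69 and 10.7 CPM in KO 1, 2, 3, 4 and 6, and in WT at 9.03 at the lowest, 11.7 at the median and 16.8 at the highest. The groups overlapped, KO 2 and WT 4 were again the highest, and the log2 fold change was -0.095 ± 0.16 (adjusted p = 0.693). Leaving out both libraries gave -0.14 ± 0.13 and no call (edgeR adjusted p = 0.431).

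Adarb2 was the only member that rose. Its level in KO 1, 2, 3, 4 and 6 was 40.9, 55.4, 52.9, 48.3 and 42.7 CPM, and in WT it was 26.0 at the lowest, 29.3 at the median and 36.4 at the highest. Every KO mouse lay above every WT mouse, KO 2 and WT 4 were the highest of their group, and KO 1, at a depth within the WT range, had 200 counts against 124 to 195 in WT. Its raw counts, too, were higher in all KO libraries, as were those of 9.32% of tested genes. The mean was 48.0 ± 6.29 CPM in KO (SD, n = 5) and 29.8 ± 3.70 CPM in WT (SD, n = 7), a ratio of 1.62 in the fit. The log2 fold change was 0.69 ± 0.09 (SE, edgeR adjusted p = 2.48e-04), and it passed in all 12 fits that left out 1 library, at an adjusted p of at most 0.00133. Adarb2 lies in the third decile of count density, with 0.0248 counts per exonic base. The other 1422 genes there had a median log2 fold change of 0.15, and 21.6% were called higher. With density offsets Adarb2 was at 0.53 ± 0.07 (adjusted p = 5.01e-04), and adjusted for the library total at 0.39 ± 0.14 with no call (adjusted p = 0.245). The 5 annotated genes that overlap Adarb2 share no exonic base with it.

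In all, 4 of the 10 members were called lower (Cort, Sst, Npy and Cck) and 1 higher (Adarb2). Of all 14274 tested genes 14.4% were called lower and 15.3% higher, 29.7% in all. Sst, Npy and Cck lie in the top decile of count density, where 67.5% of the other 1422 genes were called lower. Penk and Pvalb lie there too and were not called. Cort lies in the fifth decile, where 4.5% of the other genes were called lower. When KO 2 and WT 4 were left out, Vip joined the lower members, making 5 lower and 1 higher, against 15.4% and 15.2% of all genes, or 30.6% in all. With density offsets 2 members were called lower (Cort and Npy) and 1 higher, against 8.03% and 8.41% of 14228 genes, or 16.4% in all. The counts of members were the same with these offsets and without KO 2 and WT 4, against 7.67% lower and 8.99% higher of all genes, or 16.7%. With the library total as a covariate none of the 10 passed in either direction, against 0.0771% lower and 0.588% higher of all genes, or 0.666%. With that covariate 2 members, Cort and Adarb2, had an unadjusted p under 0.05 in edgeR. The median log2 fold change of the members was -0.22, against 0.034 over all tested genes, and with density offsets -0.13 against 0.0019. The groups did not overlap in CPM for 2 of 10 members, against 10.6% of tested genes (5.84% higher in KO and 4.8% lower). Because the members were chosen with earlier results of these data known, these shares are not a test of the set.

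**Figure D3:**
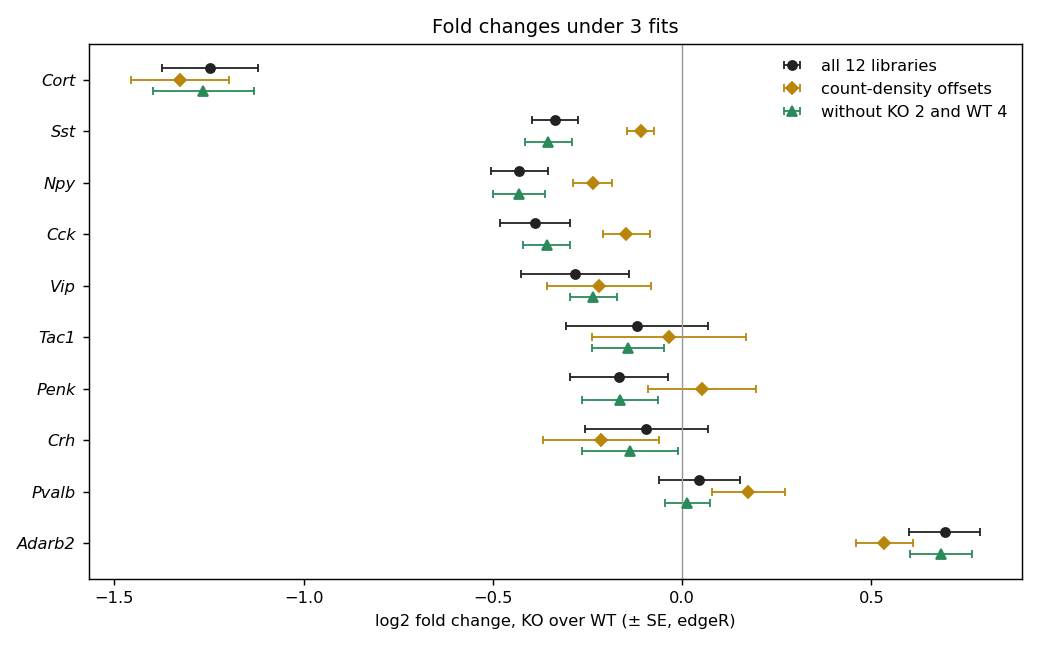
Log2 fold changes of KO over WT ± SE (x axis) of the 10 genes (y axis) in edgeR fits of all 12 libraries, with count-density offsets, and without KO 2 and WT 4. Cort stays between -1.33 and -1.25 and Adarb2 between 0.53 and 0.69 in these 3 fits, while Sst and Cck shrink to -0.11 and -0.15 with the offsets.

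The lineages were compared through ratios of their markers within a library, which need no scaling factor. A ratio does not remove a difference in count density between its 2 genes. Other genes in the density decile of Sst had a median log2 fold change of -0.18, and those in the decile of Adarb2 0.15. The ratios were not adjusted for the library total, with which no single member was called. Each of 7 ratios was tested by exact permutation of the libraries (two-sided), with p adjusted over the 7. The ratio of Sst to Adarb2 was 1.60, 0.961, 0.992, 1.10 and 1.35 in KO 1, 2, 3, 4 and 6, and in WT it ran from 1.78 to 2.83, with no overlap. On the log2 scale it was 0.24 ± 0.31 in KO and 1.26 ± 0.23 in WT (SD), a difference of -1.02 (adjusted p = 0.00589). The ratio of Vip to Adarb2 differed by -0.99 (adjusted p = 0.0106) and that of Pvalb to Adarb2 by -0.63 (adjusted p = 0.0265). The Adarb2 marker was thus higher relative to each of the other 3 in KO cortex. The Pvalb to Adarb2 call was lost with density offsets (-0.35, adjusted p = 0.109) and without KO 2, KO 3 or KO 4 (adjusted p = 0.0636, 0.0566 and 0.0566).

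Pvalb was also higher in KO relative to Vip and to Sst. The log2 ratio of Pvalb to Vip was 0.046 ± 0.24 in KO and -0.31 ± 0.08 in WT (SD), with no overlap, a difference of 0.36 (exact permutation test, adjusted p = 0.00589). It was 0.25 without KO 2 and WT 4 (adjusted p = 0.0133). The log2 ratio of Sst to Pvalb differed by -0.39 (adjusted p = 0.0106), with overlapping groups. That of Sst to Vip did not pass, at -0.033 (adjusted p = 0.861), with a range of -0.13 to 0.83 in KO and -0.080 to 0.66 in WT. Ratios with Sst hold its nearly constant count, and with density offsets the difference in Sst to Adarb2 was -0.64 and in Sst to Pvalb -0.29.

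Cort counts were lower relative to Sst counts in KO cortex. Both were read in bulk tissue, so the cells in which this ratio differed are not known. There were 9.18, 9.20, 9.99, 11.2 and 10.4 Cort counts per 100 Sst counts in KO 1, 2, 3, 4 and 6, against 16.3 at the lowest and 21.3 at the highest in WT. Every KO mouse lay below every WT mouse. The log2 ratio was -3.33 ± 0.12 in KO and -2.43 ± 0.16 in WT (SD), a difference of -0.90 (exact permutation, adjusted p = 0.00589), and -1.20 with density offsets.

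**Figure D4:**
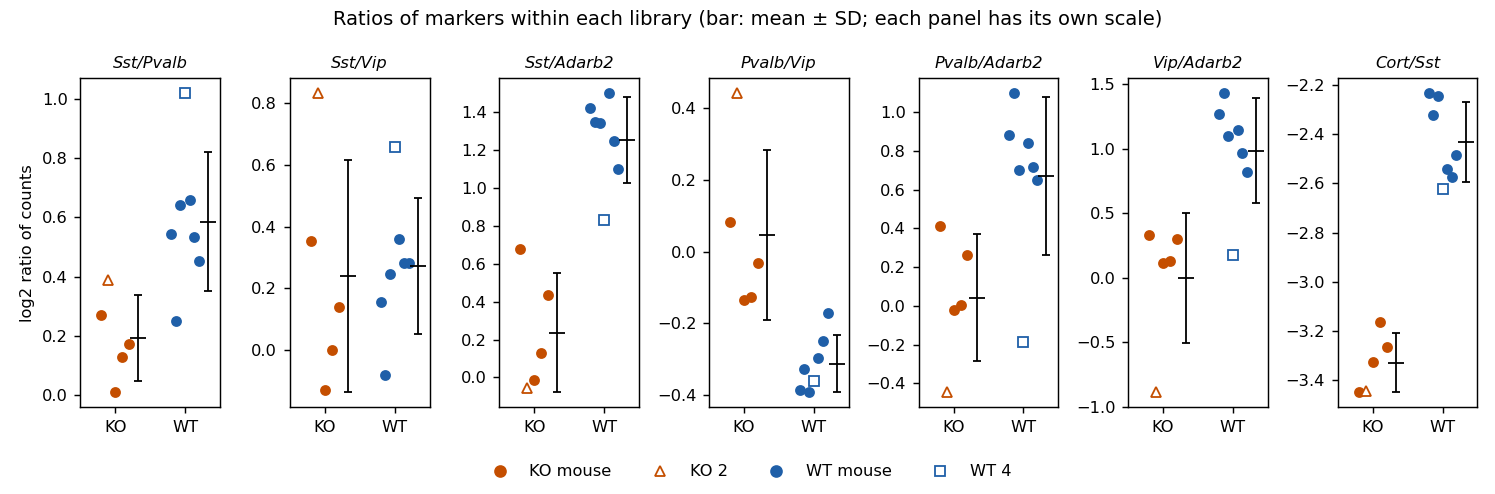
Log2 ratios of the counts of 2 markers within each library (y axis, a scale of its own in each panel) for the 5 KO and 7 WT mice (x axis), with the mean ± SD as bars and KO 2 and WT 4 as open symbols. KO and WT mice do not overlap in Sst to Adarb2, Pvalb to Vip and Cort to Sst, and they overlap in Sst to Vip.

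Other genes of the same lineages were called at shares to be read against the 15.3% of all tested genes that rose and the 14.4% that fell, and no gene of these lists was called once the fit was adjusted for the library total. Of 14 tested Sst-lineage genes 2 rose and 1 fell, with a median log2 fold change of -0.0099. The rises were in Grin3a, an NMDA receptor subunit, at 101 ± 10.4 CPM in KO and 79.3 ± 8.58 in WT, and in Elfn1, an adhesion protein of somatostatin cells that shapes their inputs, at 64.0 ± 3.92 CPM in KO and 53.4 ± 4.44 in WT. Calb1, the calcium buffer calbindin, fell, at 121 ± 11.1 CPM in KO and 141 ± 3.96 in WT (edgeR adjusted p = 0.00444). All 3 also passed with density offsets (log2 fold changes of 0.26, 0.20 and -0.18). Leaving out KO 2 and WT 4 gave 4 that rose, with Nos1, the neuronal nitric oxide synthase, and Tacr1, the substance P receptor, added.

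Of 15 Pvalb-lineage genes 3 rose and 1 fell, with a median of 0.25. Ank1, a membrane skeleton adaptor, was at 126 ± 3.11 CPM in KO and 100 ± 9.63 in WT (SD), with log2 fold change 0.33 ± 0.06 (SE, edgeR adjusted p = 0.00111). Acan, the aggrecan core of perineuronal nets, was at 10.3 ± 1.49 CPM in KO and 6.14 ± 0.988 in WT, with log2 fold change 0.75 ± 0.14. Syt2, the calcium sensor of fast GABA release, was at 59.1 ± 4.18 CPM in KO and 41.7 ± 10.5 in WT, with log2 fold change 0.50 ± 0.13. Cox6a2, a subunit of cytochrome c oxidase, was the one that fell, by 0.52 on the log2 scale (adjusted p = 0.0401). With density offsets the 4 genes passed in the same direction, at 0.24, 0.51, 0.43 and -0.60. The median of the list was then 0.13. When KO 2 and WT 4 were left out, 5 rose, with Tpbg and Kcnab3 added, and 1 fell.

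Of 13 Vip-lineage genes 1 rose and none fell, with a median of 0.18 and of 0.020 with density offsets. It was Parm1, a membrane mucin-like protein, at 47.0 ± 4.52 CPM in KO and 34.5 ± 4.94 in WT (log2 fold change 0.45 ± 0.09 SE, adjusted p = 0.00266). The integrin subunit Itga4 passed too without KO 2 and WT 4. Of 14 genes of the Adarb2 and Lamp5 lineage 2 rose and 3 fell, with a median of 0.24 and of 0.045 with offsets. Rxfp1, a relaxin receptor, rose, at 15.2 ± 3.08 CPM in KO and 8.64 ± 1.58 in WT (log2 fold change 0.82 ± 0.15, adjusted p = 0.00172), as did Lsp1, an actin-binding protein. The chemokine Cxcl14, the transcription regulator Id2 and the lysosome-associated protein Lamp5 fell, by 0.29, 0.31 and 0.28 on the log2 scale. Rxfp1, Cxcl14 and Id2 also passed with density offsets, and Lsp1 and Lamp5 did not (adjusted p = 0.125 and 0.495). Leaving out KO 2 and WT 4 gave 5 that rose and 3 that fell, with Reln, Npas1 and Sv2c added to those that rose. The listed markers of the lineage thus moved both ways.

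Genes that all GABA cells share gave little. Of 12 tested none rose and 2 fell, among them Gad1, a GABA-synthesizing enzyme, with a log2 fold change of -0.13 (edgeR adjusted p = 0.0421). None was called with density offsets, where Gad1 was at 0.058. Of 6 tested factors of the medial ganglionic eminence Sox6 rose (0.27 ± 0.08 SE, edgeR adjusted p = 0.0214), and none was called with offsets. Without KO 2 and WT 4 Sox6 missed the threshold (adjusted p = 0.0541) and Maf fell (-0.18, adjusted p = 0.0302).

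Of 18 tested receptors of the 8 peptides 5 rose and none fell, where 15.3% of all tested genes rose and 14.4% fell. The median log2 fold change was 0.37, against 0.034 over all tested genes, and it was 0.023, with no call, once adjusted for the library total. The somatostatin and cortistatin receptor Sstr2 was at 46.4 ± 5.31 CPM in KO and 35.8 ± 3.43 in WT (log2 fold change 0.37 ± 0.08 SE, edgeR adjusted p = 0.00365). Sstr4 was at 21.5 ± 3.71 CPM in KO and 15.9 ± 2.52 in WT, the VIP receptor Vipr1 at 77.5 ± 12.4 in KO and 60.2 ± 6.08 in WT, and the enkephalin receptor Oprd1 at 53.6 ± 8.82 in KO and 40.5 ± 6.39 in WT. With density offsets the median was 0.22 and 1 receptor, Sstr2, passed (0.34, adjusted p = 0.0119). Without KO 2 and WT 4 there were 7 that rose and none that fell.

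Of 13 tested genes that cut, amidate and package peptides 8 fell, 1 rose and 4 were not called, with a median log2 fold change of -0.21, where 14.4% of all tested genes fell. The carboxypeptidase Cpe was at 272 ± 37.6 CPM in KO and 351 ± 14.9 in WT (log2 fold change -0.37 ± 0.07 SE, edgeR adjusted p = 0.00154). The log2 fold changes were -0.28 and -0.24 in Scg3 and Chgb, granins of secretory granules, and -0.22 in the amidating enzyme Pam, while the convertase Pcsk1 was at 0.32. With density offsets 1 fell (Pcsk1n) and 1 rose (Chga), the median was -0.0062, and Cpe was at -0.070 (adjusted p = 0.0558). Of 13 other neuropeptide genes 2 fell and none rose: Adcyap1, the precursor of PACAP, at 38.0 ± 4.11 CPM in KO and 47.8 ± 3.53 in WT, and Vgf, a granin-like precursor, by 0.26 on the log2 scale. Adcyap1 passed with offsets (-0.42, adjusted p = 0.00195) and Vgf did not (adjusted p = 0.323).

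**Figure D5:**
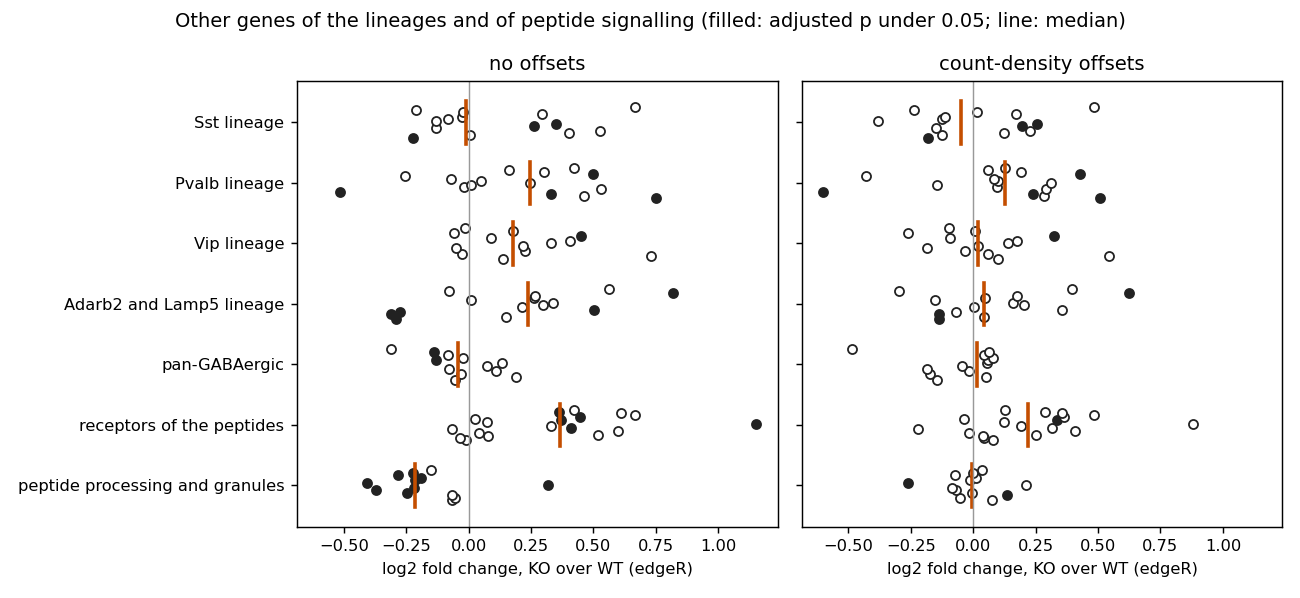
Log2 fold changes of KO over WT (x axis) of each tested gene of 7 lists (y axis), 1 point per gene, filled where the edgeR adjusted p is under 0.05, with the list's median as a line, without offsets (left) and with count-density offsets (right). The peptide receptors have a median of 0.37 on the left and 0.22 on the right, and the peptide processing genes -0.21 and -0.0062.

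Markers of other cell types and regions, among them excitatory and striatal neurons that make some of these peptides, were compared with the same fit. Their counts are to be read against the 15.3% of all tested genes that rose and the 14.4% that fell. With density offsets these shares were 8.41% and 8.03%. Of 6 microglial genes 3 fell, all 3 with density offsets too, among them P2ry12 and Cx3cr1 with log2 fold changes of -0.30 and -0.22, and the summed level of the 6 was 392 to 423 CPM in KO and 436 to 522 in WT. Of 6 endothelial genes 3 rose (Tek, Flt1 and Pecam1), at 0.38, 0.30 and 0.26, with a summed level of 244 to 284 CPM in KO and 225 to 270 in WT. Astrocyte genes had 2 of 6 lower (Slc1a3 and Slc1a2), oligodendrocyte genes 3 of 6 (Cnp and Mbp among them), and excitatory neuron genes 2 of 11. None of these 7 was called with offsets, nor were the 3 endothelial genes. The summed levels were 1919 to 2281 CPM in KO and 2055 to 2515 in WT for astrocytes, 1294 to 1534 in KO and 1438 to 1657 in WT for oligodendrocytes, and 1541 to 2079 in KO and 1716 to 2063 in WT for excitatory neurons. Striatal, olfactory bulb and choroid plexus genes gave no call in edgeR, DESeq2 or limma and none had an unadjusted edgeR p under 0.05, with the smallest p in Ppp1r1b (log2 fold change -0.17, adjusted p = 0.249), Cdhr1 (0.91, adjusted p = 0.297) and Clic6 (0.25, adjusted p = 0.787). With KO 2 and WT 4 left out, 2 of 4 olfactory bulb genes rose, Cdhr1 and Shisa3 (log2 fold changes of 1.44 and 1.03, edgeR adjusted p = 0.0128 and 0.00695). No marker found among the 14909 genes was at 0 in all libraries. This check could not cover absent markers: 14 of 15 listed Sst-lineage genes and 5 of 6 choroid plexus genes were present. The part of these cell types in the changes of the 10 genes was not tested.

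Per length of transcript, Cck had the highest CPM of the 10 genes and Adarb2 the lowest. The limit given above on what the CPM of Sst, Cck and other dense genes say about abundance applies to this order. In CPM per kilobase of exon Cck was at 85.8 ± 15.2 in KO and 112 ± 8.41 in WT, and Sst at 78.2 ± 7.74 in KO and 98.4 ± 5.67 in WT (SD). Penk was at 79.9 ± 10.7 in KO and 89.5 ± 19.0 in WT, and Npy at 62.6 ± 7.39 in KO and 84.1 ± 6.39 in WT. Pvalb, Tac1 and Vip followed at 51.8, 37.4 and 31.9 in KO and 50.2, 40.5 and 38.8 in WT. Cort was at 8.19 ± 0.755 in KO and 19.4 ± 2.77 in WT, Crh at 8.28 ± 1.78 in KO and 8.81 ± 1.96 in WT, and Adarb2 at 5.70 ± 0.746 in KO and 3.54 ± 0.439 in WT. In WT the ranges of neighbours in this order overlapped from Cck to Npy and from Pvalb to Vip and were apart elsewhere. Cort was the eighth and Crh the ninth in WT, and in KO their means were close and in the other order.

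The genes whose profile over the 12 libraries was closest to that of a member were found by the root mean square difference of log2 CPM, each gene centred on its own mean. For Cort these were Entpd4, Tmem44 and Cyr61, at 0.23, 0.30 and 0.30, where the median over all tested genes was 0.63. The genotype difference is part of the profile, so the choice itself favours genes that are lower in KO, such as Entpd4 at 114 ± 3.68 CPM in KO and 205 ± 14.5 in WT. For Sst they were Clu, Rpl4 and Syp, at 0.029, 0.029 and 0.032, where the median was 0.26. These are an abundant chaperone, a ribosomal protein and a synaptic vesicle protein, and their log2 fold changes were -0.33, -0.31 and -0.30.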

How the data were processed

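The deposited file is a single table of whole-number counts by gene with RefSeq accessions, which the authors neither scaled nor averaged. Per the labels' protocols RNA was prepared with Trizol and a Zymo kit, and the submitters' processing notes name STAR and mm10. The counter, strand setting and duplicate handling are not stated. In 23 rows a symbol turned into a date was restored from its accession. Exonic lengths came from GENCODE M21 by accession for 14734 genes and by symbol for 123.

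Fits used edgeR 4.0.16 under R 4.3.3 (filterByExpr, TMM, quasi-likelihood test of genotype, Benjamini-Hochberg at 0.05). Ratios used a pseudocount of 0.5 counts. Density offsets were loess fits (span 0.3) of each library's log2 deviation on log2 count per exonic base. Alternatives were DESeq2 1.42.0, limma 3.58.1, other filters and scalings, and left-out libraries. Scripts were tested on simulated data.

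The 17 lists of lineage, receptor, processing and cell type genes overlap in a few genes and, like the members, were chosen with earlier results of these data known. Named are all members, up to 4 called genes of each list and direction by p, or the smallest p where none was called, and 3 genes most like Cort and like Sst. Pcsk1n, Chga and the genes named as called after leaving out 2 libraries were chosen after their values were seen. Whether mice shared litters is not stated, so p-values measure the spread between these libraries. The labels do not state whether mouse numbers pair the samples, and the main fits did not pair them. Some genes of the lists that the naming rule selects are not reported here.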

Additional observations from a re-analysis of the deposited data

Results flagged for a closer look

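Of 34 groups of values checked (10 genes and 7 ratios in each genotype), 7 had 1 mouse apart from the others. Chance alone flags about 1 in 20 independent groups. These groups share genes and libraries, so that rate does not measure how unusual the 7 are. All 7 were KO 2 or WT 4. Vip in KO 2 was at 29.9 CPM, against 51.3 to 57.4 in the other KO mice, and the log2 ratio of Vip to Adarb2 there was -0.89, against 0.12 to 0.33. In WT 4 Cck was at 80.2 CPM, against 95.2 to 102 in the other WT mice, and Pvalb at 31.9 CPM, against 47.7 to 55.9. Tac1 in WT 4 was at 81.4 CPM, against 38.5 to 53.3, and Crh at 16.8 CPM, against 9.03 to 11.99. The log2 ratio of Pvalb to Adarb2 in WT 4 was -0.19, against 0.65 to 1.098 in the other WT mice.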

How the results depend on the processing

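Of the settings tried, density offsets left 2 members called lower, also without KO 2 and WT 4 (chosen after seeing the data), and the library total as a covariate left 0 lower and 0 higher; leaving out 1 library gave 4 to 5 lower and 1 higher. Over all genes 2183 were called higher and 2050 lower. Density offsets gave 1196 and 1143, without KO 2 and WT 4 too 1277 and 1089, the covariate 84 and 11, an adjusted p under 0.01 gave 1006 and 1145, and leaving out 1 library 1585 to 2420 and 1544 to 2467. The mouse number as a replicate block gave 1129 and 1186 with the same member counts; deviations of same-numbered mice correlated between -0.38 and 0.14, and only KO 6 correlated best with its own number. Paired by number, no ratio could pass with 5 pairs: the log2 differences were -0.40 for Sst to Pvalb, -1.004 for Sst to Adarb2, 0.39 for Pvalb to Vip, -0.60 for Pvalb to Adarb2, -0.99 for Vip to Adarb2 and -0.93 for Cort to Sst, with adjusted p of 0.109 to 0.146. With density offsets Pvalb to Adarb2 was at -0.35, and without 1 library at -0.77 to -0.51. Sst to Vip, not called, was 0.13 with density offsets and -0.18 to 0.059 without 1 library. Uncalled members changed sign: without 1 library Tac1 ran from -0.30 to 0.035, Crh from -0.24 to 0.0055 and Pvalb from -0.050 to 0.11 (signs changed without WT 4), and Penk was positive with density offsets (0.052, and 0.049 without KO 2 and WT 4). Upf3b kept its call throughout, at -3.96 to -3.64. The cause of these shifts was not tested. Counts were lowest for Cort (29 to 74 over the libraries).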

Other observations

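Genes near the 2 members whose groups did not overlap were looked up after their values were seen. Within 250 kb of Cort on chromosome 4, 6 genes were tested (Casz1, Pex14, Dffa, Pgd, Kif1b and Ube4b) and 0 were called by edgeR (1, Kif1b, had an unadjusted p under 0.05 and was the 1 called by DESeq2, with 0 called by limma), with log2 fold changes between -0.13 and 0.18 against -1.25 for Cort. The nearest, Dffa, lies 4381 bases away and was at 0.093 ± 0.05 (SE, adjusted p = 0.167). Within 250 kb of Adarb2 on chromosome 13, 3 genes were tested, and Idi1, an enzyme of isoprenoid synthesis, fell, at -0.32 ± 0.05 (edgeR adjusted p = 7.92e-04), with Wdr37 and Gtpbp4 at 0.075 and -0.00062.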
